A study of Homo sapiens with 10 samples.

Results

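The proteasome genes described here are the subunits of the 20S core and 19S cap, the activators, the inhibitor-like regulator PSMF1 and the assembly chaperones that carry a PSM symbol. Members were the genes named PSMA1 to PSMA8, PSMB1 to PSMB7, PSMC1 to PSMC6, PSME1 to PSME4, PSMF1, PSMG1 to PSMG4 or PSMD followed by a number. Of 35606 genes in each table, 44 had such a name, and 43 of them had a mean of at least 1 CPM (counts per M reads) and were tested. PSMA8, a form of an alpha subunit used in testis, was listed at 0 in all 10 samples. The immunoproteasome subunit genes lie outside this set.

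The study asked how loss of PIKFYVE activity and inhibition of mTOR change gene expression in gastroenteropancreatic neuroendocrine tumor cells. QGP-1 is an established cell line from a human pancreatic neuroendocrine tumor. PIKFYVE is a lipid kinase of endosomes and lysosomes, apilimod is an inhibitor of that kinase, and Torin-1 inhibits the kinase mTOR, a driver of protein synthesis and growth. RNA-seq covered 10 samples in 5 groups of 2, with the CRISPR interference samples in one table and the drug samples in another.

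In the first table, called the knockdown table below, cells carried a lentiviral vector for CRISPR interference, in which a nuclease-dead Cas9 joined to a KRAB repressor is guided to a gene's start. One group had the control guide sgNC and the other the single guide sgPIKFYVE-1, and both had been selected with puromycin. In the drug table, QGP-1 cells without a guide, labelled wild type, received DMSO, 1 µM apilimod or 100 nM Torin-1. The labels give 24 h for the drugs, whereas the legends of the paper give a shorter time. Neither source says that the 2 samples of a group came from separate cultures, so p-values measure the spread between these samples, which may be technical. As cells were sequenced in bulk, a smaller share of cells with a transcript and less of it per cell cannot be told apart.

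The proteasome is the cell's main protease for proteins tagged with ubiquitin. Stacked alpha and beta rings form the 20S core, in which beta subunits cut the protein, and the alpha rings gate the entry. The 19S cap has a base, whose ATPases unfold the substrate and feed it into the core, and a lid, which removes ubiquitin. Dedicated chaperones help to assemble core and base, and the genes of the subunits are known to be raised together by the transcription factor NFE2L1 when proteasome activity falls short.

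The samples held an estimated 9.30 to 13.6 M reads, so 3 reads correspond to between 0.227 and 0.329 CPM, which covers counting error only. PIKFYVE was 101 and 97.5 CPM in the sgNC samples and 10.9 and 12.5 CPM in the sgPIKFYVE-1 samples, giving a log2 fold change of -2.98 (standard error, SE, 0.098, adjusted p = 1.22e-14). Its transcript was therefore low in both samples labelled as knockdown. The 6 neuroendocrine markers CHGA, CHGB, SYP, INSM1, ENO2 and SCG3 lay between 71.5 and 2586 CPM in all samples, and the 4 epithelial markers EPCAM, KRT8, KRT18 and KRT19 between 14.8 and 932 CPM. The 4 markers of leukocytes, endothelium and fibroblasts lay between 0.108 and 9.61 CPM, the highest being COL1A1 in the sgNC samples.

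The 43 tested members together took up 4151 and 4138 CPM with sgNC, 4799.6 and 4884 CPM with sgPIKFYVE-1, 5545 and 5519.8 CPM with DMSO, 5522 and 5465 CPM with apilimod, and 4150.0 and 4377 CPM with Torin-1. Both knockdown samples were thus above both of their controls, both Torin-1 samples were below both DMSO samples, and apilimod differed from DMSO by little. The tables were normalized separately, so sgNC and DMSO levels are not compared.

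Levels of different genes were compared as CPM per kilobase of transcript in the DMSO samples. Subunits of the core were the most abundant class, with a median of 99.3 for the beta ring and 94.2 for the alpha ring. The base subunits other than ATPases had a median of 79.25, the lid of 65.5, the ATPases of 37.3 and the activators of 33.15. PSMF1 had 23.87, and the assembly chaperones of the core and of the base had medians of 22.9 and 22.6. PSME3, the nuclear activator PA28 gamma, was the highest single member at 304.5 CPM per kilobase, above PSMB4, a beta subunit, at 254 CPM per kilobase. With sgNC, PSMB4 was the highest at 212 and PSME3 followed at 189 CPM per kilobase. These ranks depend on the length taken for each gene, 998 bases for PSME3 and 964 for PSMB4. Which transcript forms the cells expressed was not determined.

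Because NFE2L1 acts through antioxidant response elements, the promoters of the members were searched for the core of that element. Promoter windows of RefSeq on GRCh38.p14, from 250 bases before to 50 bases after the gene's start, were matched for 37 of the 43 tested members. The genes PSMA7, PSMB1, PSMB6, PSMB7, PSMD4 and PSMG3 had no entry. TGACNNNGC on either strand was found in 14 of 37 members (37.8%) and in 16.1% of all 27305 genes with a window. The share of all genes was not limited to genes that passed the filter on CPM, as these members did. There were 13 matches ahead of the start, in 12 members, and 7 of these stretches lay outside the gene's own transcripts in GENCODE release 29. The 4 shown here were taken from those 7 since they come from genes that responded differently below. Each has 59 bases, written 5′ to 3′ on the strand of the gene, with the 9 bases of the match in capitals. That of PSMB3 is at chr17:38752612-38752670 on the forward strand, with the match starting 104 bases before the start used by RefSeq. That start, from which all distances here are counted, differs from the GENCODE release 29 gene positions given elsewhere. That of PSMD12 is at chr17:67366709-67366767 on the reverse strand, 165 bases before the RefSeq start. That of PSMD5 is at chr9:120843023-120843081 on the reverse strand, 134 bases before the RefSeq start. That of PSME4 is at chr2:53970994-53971052 on the reverse strand, 34 bases before the RefSeq start, and there the element reads on the other strand.
PSMB3: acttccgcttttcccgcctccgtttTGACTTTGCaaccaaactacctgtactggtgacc
PSMD12: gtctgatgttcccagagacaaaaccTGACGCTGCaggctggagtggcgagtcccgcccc
PSMD5: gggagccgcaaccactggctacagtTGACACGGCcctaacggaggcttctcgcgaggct
PSME4: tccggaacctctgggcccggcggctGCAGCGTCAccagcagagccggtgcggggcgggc

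The comparison of sgPIKFYVE-1 with sgNC asked whether proteasome genes change when PIKFYVE is repressed. Of the 43 members 25 rose (58.1%), where 21.6% of the 13591 genes tested rose. PSMB3 alone fell (2.33%), where 20.9% of all genes tested fell, and 17 members did not pass the test. The median log2 fold change of the members was 0.19 and that of all genes -0.0042. Estimates ran from -0.26 for PSMB3 to 0.54 for PSME3, and 41 of 43 were above 0, as were 49.4% of all genes. With 1 library left out at a time, the median of the members lay between 0.19 and 0.23. Without the variance trend in the fit, 13 members rose, as did 1776 of all 13591 genes.

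**Figure D1:**
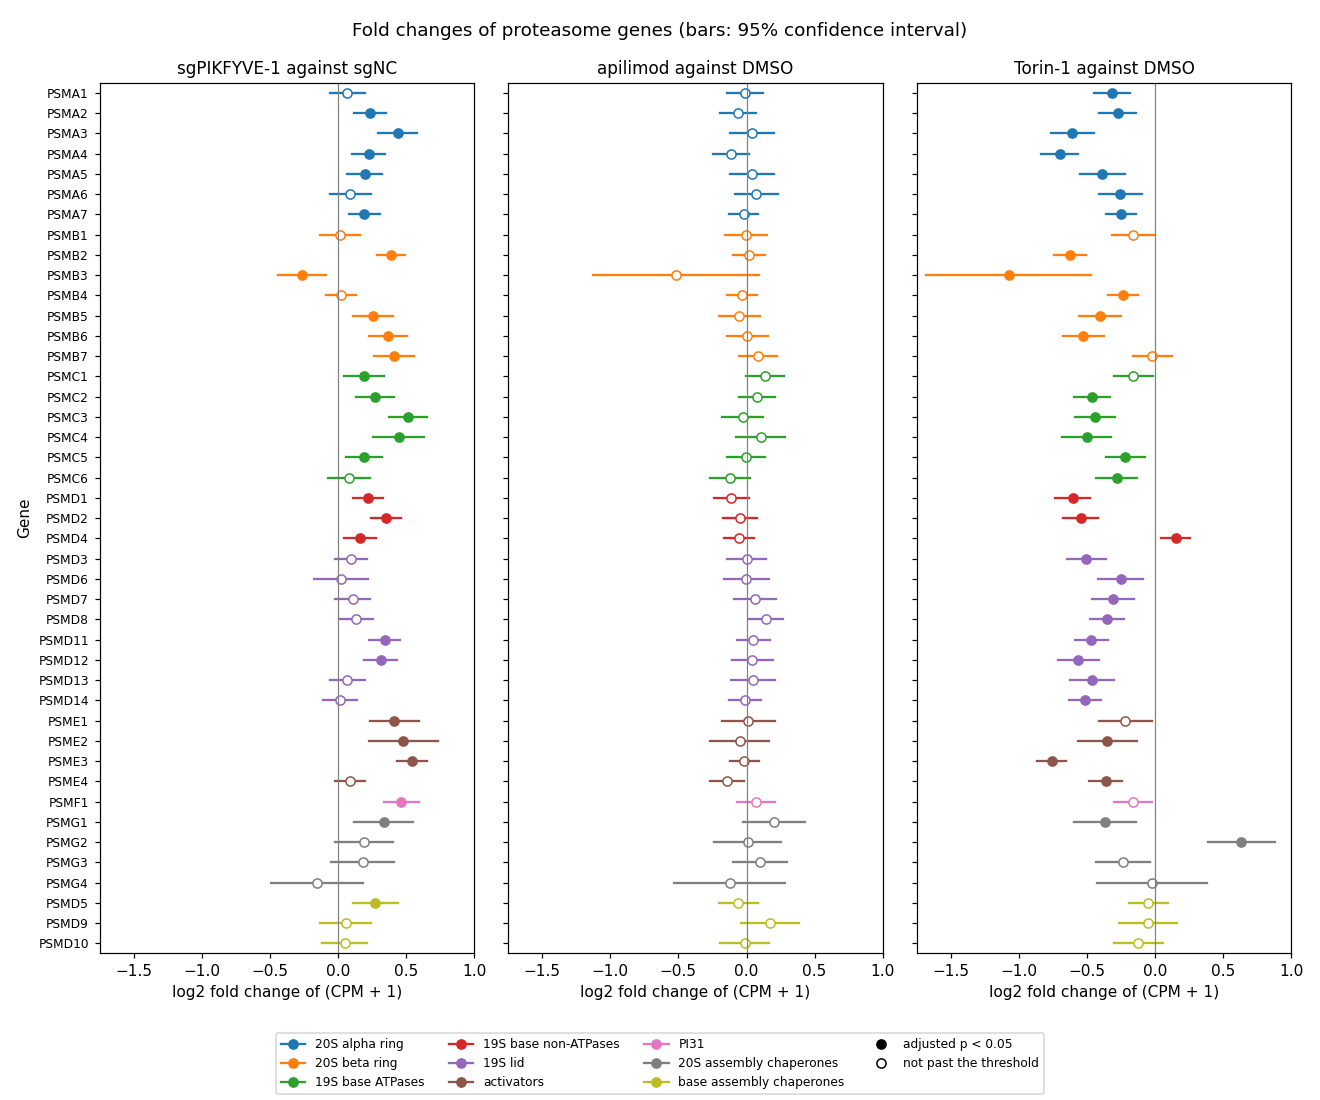
Log2 fold change of (CPM + 1) on the horizontal axis for each of the 43 tested members, coloured by class, in 3 comparisons; bars are 95% confidence intervals of limma, filled points passed an adjusted p of 0.05 and open points did not. In the knockdown 25 members lie to the right as filled points, under apilimod no point is filled, and with Torin-1 31 lie to the left as filled points.

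By class, the increases in the knockdown were most frequent in the base, the activators and the alpha ring of the core. In the alpha ring 5 of 7 rose (median log2 fold change 0.20) and in the beta ring 4 of 7 (0.26). Of the ATPases 5 of 6 rose (0.23), as did the 3 other base subunits (0.22), namely PSMD1 and PSMD2, which scaffold the base, and the ubiquitin receptor PSMD4. In the lid 2 of 8 rose, PSMD11 and PSMD12, and its median was 0.10. Among the activators PSME1, PSME2 and PSME3 rose (median over all 4 genes 0.45), and the 20S-binding regulator PSMF1 rose by 0.47. Of the chaperones, 1 of 4 for the core (PSMG1) and 1 of 3 for the base (PSMD5) rose.

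PSME3 had the largest increase. It lies at chr17:42824385-42843758 on the forward strand of GRCh38. It measured 195 and 182 CPM with sgNC and 271 and 279 CPM with sgPIKFYVE-1, a log2 fold change of 0.54 (SE 0.052, adjusted p = 7.41e-08). PSME2, the beta chain of the interferon-inducible activator PA28, went from 19.4 and 16.9 CPM to 26.7 and 24.5 CPM (0.48, SE 0.12, adjusted p = 0.00332). In neither gene did the groups overlap. Exons of PSME3 and BECN1 share 300 bases on opposite strands, and those of PSME2 and RNF31 share 216 bases. PSMF1, also called PI31, was 85.7 and 89.5 CPM with sgNC and 121 and 122 CPM in the knockdown (0.47, SE 0.061, adjusted p = 5.16e-06).

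Among the ATPases, PSMC3 was 75.9 and 70.3 CPM in the controls and 106 and 104 CPM in the knockdown, a difference of 0.52 on the log2 scale (SE 0.067, adjusted p = 3.87e-06). PSMC4 was 33.5 and 32.9 CPM against 44.2 and 47.1 CPM (0.45, SE 0.089, adjusted p = 0.000469). Both samples of the knockdown were above both controls for PSMC3 and for PSMC4. In the core, the catalytic subunit gene PSMB7, which codes for the trypsin-like activity, measured 64.4 and 64.6 CPM with sgNC and 83.7 and 88.5 CPM with the guide (0.41, adjusted p = 8.4e-05). The other catalytic subunits were also higher, PSMB5 (chymotrypsin-like) by 0.26 with an adjusted p of 0.00575 and PSMB6 (caspase-like) by 0.37 with an adjusted p of 0.00016.

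Other members sat near their controls. PSMB1, a beta subunit, was 78.4 and 74.5 CPM with sgNC and 74.8 and 79.7 CPM with sgPIKFYVE-1, and the groups overlapped (0.01, 95% confidence interval -0.13 to 0.16). PSMD14, the deubiquitinase of the lid, was 132.5 and 144 CPM against 141 and 138 CPM, again with overlap (0.02, interval -0.11 to 0.14). These intervals exclude changes of the size seen for PSME3.

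PSMB3, a beta subunit at chr17:38752736-38764231 on the forward strand, went against its class. Its values were 78.3 and 64.9 CPM with sgNC and 61.0 and 57.4 CPM with sgPIKFYVE-1, a log2 fold change of -0.26 (SE 0.085, adjusted p = 0.0164). The call was lost without sgNC replicate 1 (-0.13, adjusted p = 0.374) and without sgPIKFYVE-1 replicate 2 (-0.22, adjusted p = 0.106). The groups did not overlap, but the sgNC samples stood farther apart than the knockdown samples.

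The smallest called increases were those of PSMD4, PSMC1, PSMC5 and PSMA7. PSMD4 was 159 and 170.4 CPM with sgNC and 179 and 190.2 CPM in the knockdown (log2 fold change 0.16, adjusted p = 0.0243). The call did not hold without sgNC replicate 1 (adjusted p = 0.249) or sgPIKFYVE-1 replicate 2 (0.157). The ATPase gene PSMC1 had 69.2 and 73.5 CPM against 79.2 and 84.1 CPM (0.19, adjusted p = 0.0333). It kept its call only without sgPIKFYVE-1 replicate 1, the adjusted p being 0.247 without sgNC replicate 1, 0.0503 without sgNC replicate 2 and 0.16 without sgPIKFYVE-1 replicate 2. These genes share the direction of their class. With 1 library left out, the estimates of PSMD4 lay between 0.12 and 0.21 and those of PSMC1 between 0.15 and 0.23. A fit with a lone sample in a group has a larger error, so a lost call does not show that a gene depends on 1 sample. For PSMC5, another ATPase, the samples gave 109 and 102 CPM against 125 and 116 CPM (0.19, adjusted p = 0.0205), with the call lost without sgNC replicate 2 (0.206) and sgPIKFYVE-1 replicate 1 (0.151). PSMA7, an alpha subunit, had 155 and 160.2 CPM against 176 and 185 CPM (0.19, adjusted p = 0.00767), and lost the call without sgNC replicate 1 (0.0728) and sgPIKFYVE-1 replicate 2 (0.0624). Exons of PSMC1 overlap those of NRDE2 on the opposite strand over 4671 bases and those of PSMC5 overlap FTSJ3 over 874 bases, and the sources used here do not say whether reads were counted by strand.

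**Figure D2:**
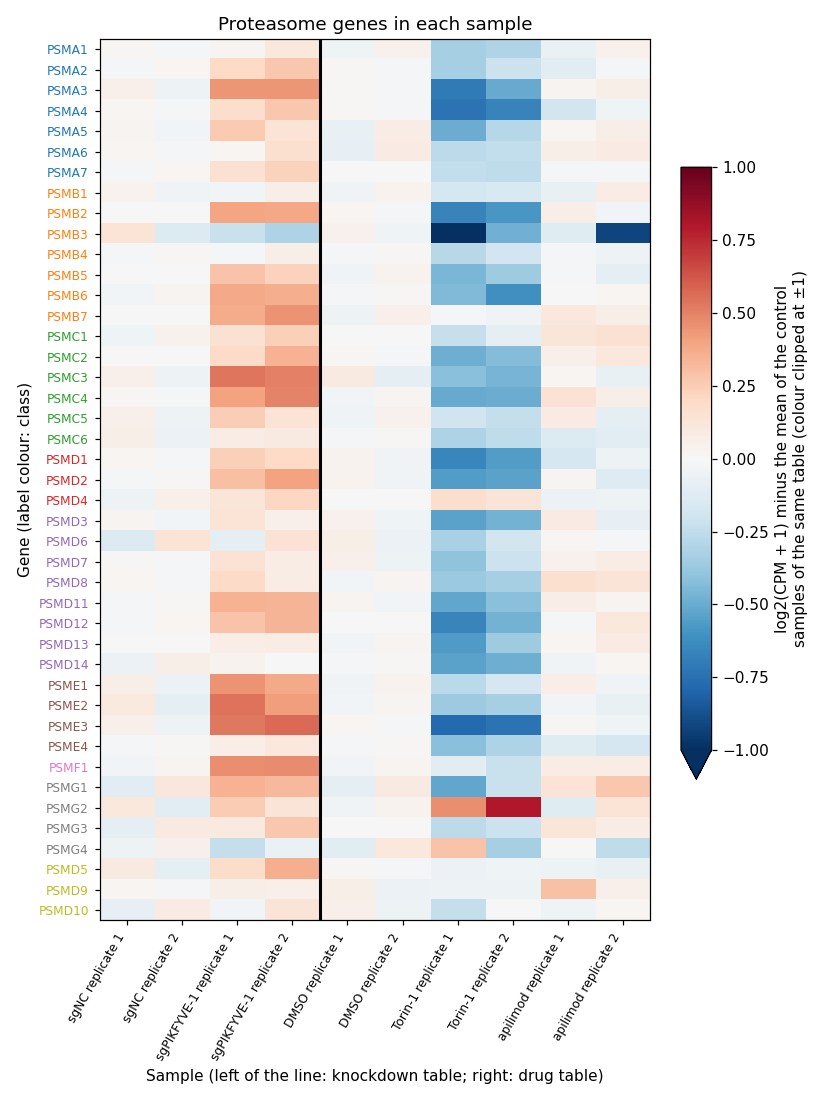
Heat map of the 43 tested members (vertical axis, label colour by class) in the 10 samples (horizontal axis); colour is log2(CPM + 1) minus the mean of the control samples of the same table, clipped at -1 and 1. The sgPIKFYVE-1 columns are mostly red and the Torin-1 columns mostly blue, and PSMB3 is dark blue in Torin-1 replicate 1 (31.1 CPM) and apilimod replicate 2 (53.1 CPM) but not in the other sample of either group.

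The comparison of apilimod with DMSO asked the same of the inhibitor of the kinase. No member passed limma's test in either direction, where 5.75% of the 13520 genes tested rose and 2.79% fell. At an unadjusted p under 0.05 there was 1 member above DMSO, PSMD8 of the lid, and 1 below, PSME4, which codes for the activator PA200. PSMD8 was 144 and 149.8 CPM with DMSO and 164 and 161 CPM with apilimod, and PSME4 was 186 and 189.8 CPM with DMSO and 173 and 167 CPM with apilimod. The median log2 fold change was -0.00096, and estimates ran from -0.52 for PSMB3 to 0.20 for PSMG1.

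The members nearest to DMSO were lid subunits. PSMD3 measured 173 and 162 CPM with DMSO and 178 and 158.5 CPM with apilimod (95% confidence interval of the log2 fold change -0.14 to 0.14). PSMD6 measured 77.7 and 71.2 CPM against 75.5 and 73.2 CPM (interval -0.17 to 0.17). For PSME3, 308.6 and 299 CPM with DMSO stood against 306 and 295 CPM with apilimod, and the interval of -0.12 to 0.09 lies below the increase estimated in the knockdown. PSMC3, at 153 and 135 CPM with DMSO and 145 and 136 CPM with apilimod, had an interval of -0.18 to 0.12. The widest interval was that of PSMB3, -1.13 to 0.09, since its samples measured 104 and 98.3 CPM with DMSO but 93.0 and 53.1 CPM with apilimod. Whether a member's response differed between apilimod and the knockdown was not tested, as the tables were normalized separately and have their own controls.

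Torin-1 was compared with DMSO to see the effect of mTOR inhibition. Of the 43 members 31 fell (72.1%), where 21.8% of all genes tested fell, and 2 rose, PSMG2 and PSMD4 (4.65%), where 16.6% of all genes tested rose. The other 10 did not pass the test. The median log2 fold change of the members was -0.35 and that of all genes -0.012, and 41 of 43 estimates were below 0, as were 51.3% of all genes. With 1 library left out at a time the median of the members lay between -0.37 and -0.30. Without the variance trend 24 members fell, as did 2183 of all 13520 genes. With quantile normalization 28 members fell, as did 2556 of all genes.

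Every class of the core and cap took part. All 7 alpha subunits fell (median log2 fold change -0.31), as did all 8 lid subunits (-0.47), 5 of 7 beta subunits (-0.41) and 5 of 6 ATPases (-0.36). In the base PSMD1 and PSMD2 fell by 0.61 and 0.55 while PSMD4 rose. Of the activators PSME2, PSME3 and PSME4 fell (median over all 4 genes -0.36). The base assembly chaperones PSMD5, PSMD9 and PSMD10 did not pass the test, with estimates from -0.12 to -0.05. Of the core chaperones PSMG1 fell by 0.37 and PSMG2 rose.

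PSME3 was 308.6 and 299 CPM with DMSO and 177 and 182 CPM with Torin-1, a log2 fold change of -0.76 (SE 0.050, adjusted p = 6.83e-08), so that it had 58.9% of the DMSO mean. PSMA4, an alpha subunit at chr15:78540405-78552419 on the forward strand, had 182 and 178.5 CPM with DMSO and 108 and 113 CPM with Torin-1 (-0.70, SE 0.063, adjusted p = 1.47e-06). The beta subunit gene PSMB2, at chr1:35599544-35641844 on the reverse strand, had 272 and 264 CPM against 169 and 179 CPM (-0.63, SE 0.055, adjusted p = 1.2e-06). In each of these genes the Torin-1 samples lay well below the DMSO samples and close to each other. PSMA3, a further alpha subunit, was 101 and 99.5 CPM with DMSO and 60.9 and 70.1 CPM with Torin-1 (-0.61, SE 0.075, adjusted p = 2.73e-05). PSMD12, whose promoter stretch is shown above, was 160.0 and 159 CPM against 101 and 114 CPM in the Torin-1 samples (-0.57, adjusted p = 2.9e-05).

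PSMB3 had the largest estimate and the widest spread. Its DMSO samples measured 104 and 98.3 CPM and its Torin-1 samples 31.1 and 72.3 CPM, a log2 fold change of -1.08 (SE 0.28, adjusted p = 0.00847). Without Torin-1 replicate 1 the estimate was -0.48 and the call was lost (adjusted p = 0.0906). Both Torin-1 samples were below DMSO, yet replicate 1 was far below replicate 2. Among genes averaging 1 CPM or more in either table, none shared exon bases with PSMB3 in GENCODE release 29.

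**Figure D3:**
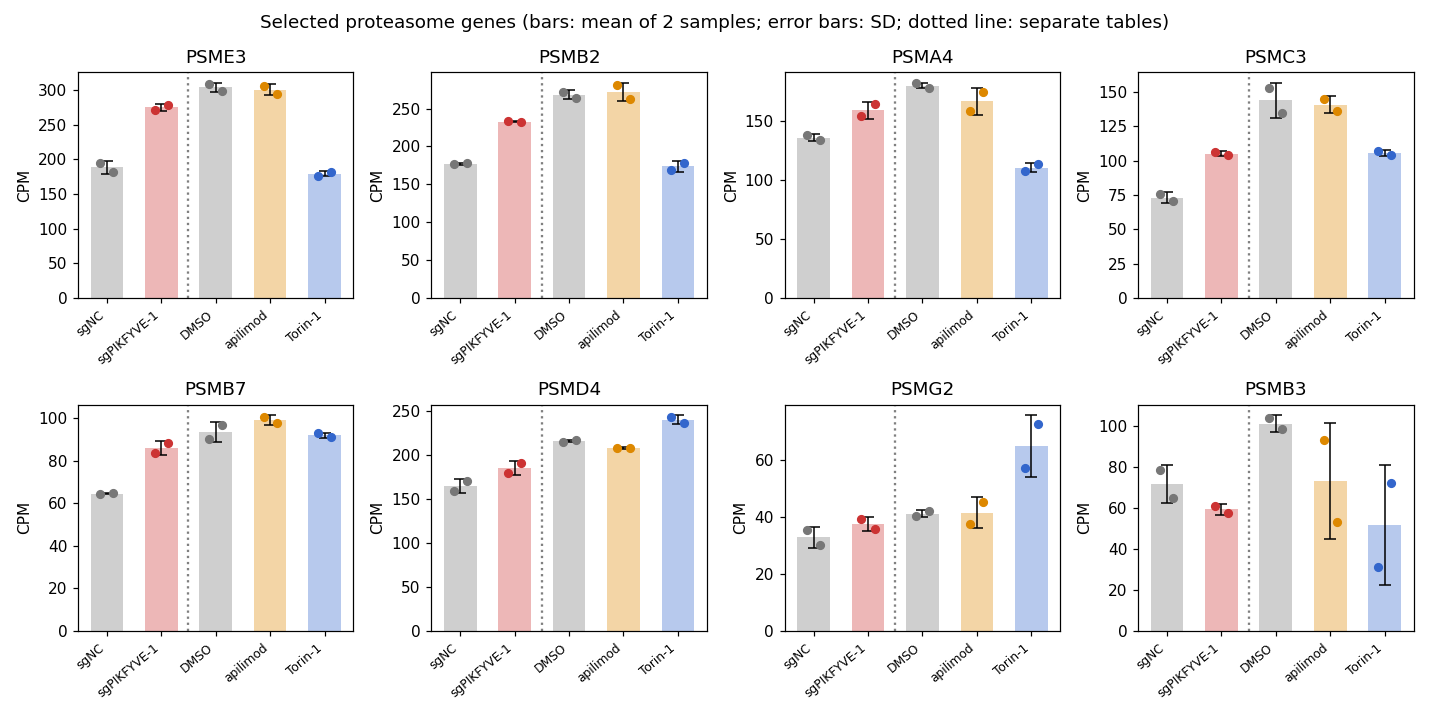
CPM (vertical axis, from 0) of 8 members in each group; bars are means of 2 samples, error bars the SD, points the samples, and the dotted line separates the knockdown table from the drug table. PSME3, PSMB2, PSMA4 and PSMC3 are higher with sgPIKFYVE-1 and lower with Torin-1, PSMB7 is near its DMSO level with Torin-1, PSMD4 and PSMG2 are higher with Torin-1, and the apilimod and Torin-1 points of PSMB3 lie far apart.

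The smallest called decreases were those of PSMC5, PSMB4 and PSMA7. PSMC5 had 147 and 157 CPM with DMSO and 133 and 129 CPM with Torin-1 (log2 fold change -0.22, adjusted p = 0.0192). The call was lost without DMSO replicate 2 (adjusted p = 0.169) or Torin-1 replicate 2 (0.0755). Its overlapping neighbour FTSJ3 also had lower values with Torin-1, 49.2 and 52.3 CPM against 77.3 and 70.2 CPM with DMSO, and the part of shared reads in this was not tested. PSMB4 had 243 and 247 CPM against 201 and 215 CPM (-0.23, adjusted p = 0.00286), and PSMA7 had 207 and 205 CPM against 173 and 172 CPM (-0.25, adjusted p = 0.00148). For both of these the decrease was called with every library left out in turn.

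The catalytic subunits of the core did not move alike. PSMB5 fell by 0.41 (adjusted p = 0.000519) and PSMB6 by 0.53 (adjusted p = 5.5e-05). PSMB7, at chr9:124353466-124415444 on the reverse strand, was 90.1 and 96.9 CPM with DMSO and 92.9 and 91.2 CPM with Torin-1, and the samples of both groups overlapped (-0.02, 95% confidence interval -0.16 to 0.12). PSMG4, a core chaperone of low abundance, also overlapped, at 11.4 and 13.3 CPM against 15.3 and 9.59 CPM (-0.02, interval -0.43 to 0.38), and 174 bases of its exons are shared with TUBB2B on the opposite strand, which had 602 and 599 CPM with DMSO and 674 and 652 CPM with Torin-1. The narrow interval of PSMB7 excludes a fall like that of PSMB5 or PSMB6, while that of PSMG4 does not exclude either direction.

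PSMG2 was the member with the largest increase under Torin-1. It codes for a chaperone that pairs with the product of PSMG1 and helps alpha rings to form, and it lies at chr18:12658043-12725740 on the forward strand. It had 40.3 and 42.1 CPM with DMSO and 57.2 and 72.6 CPM with Torin-1, which is 157.5% of the DMSO mean (log2 fold change 0.63, SE 0.11, adjusted p = 0.000624). Its partner PSMG1 had 45.3 and 51.4 CPM against 33.4 and 41.3 CPM, so the paired chaperones moved in opposite directions (PSMG1 adjusted p = 0.014). Exons of PSMG2 overlap those of CEP76 on the opposite strand over 468 bases and those of SPIRE1 over 92 bases. CEP76 measured 27.1 and 27.3 CPM with DMSO and 30.3 and 37.1 CPM with Torin-1, and its part in the value of PSMG2 was not tested.

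PSMD4, at chr1:151254703-151267479 on the forward strand, was the other member that rose. It had 215 and 217 CPM with DMSO and 243 and 236 CPM with Torin-1 (log2 fold change 0.15, SE 0.050, adjusted p = 0.0284), while the neighbouring base subunits PSMD1 and PSMD2 fell. The groups did not overlap. The call was lost without DMSO replicate 1 (adjusted p = 0.157), DMSO replicate 2 (0.128) or Torin-1 replicate 1 (0.119), with estimates between 0.13 and 0.16.

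Torin-1 was also compared with apilimod directly, the time being the same and the doses being those named above. Of the 43 members 33 were lower with Torin-1 (76.7%), where 26.2% of all genes tested were lower, and PSMG2 and PSMD4 were higher (4.65%), where 20.5% of all genes tested were higher. The other 8 did not pass the test, and the median log2 difference was -0.34. All 7 alpha subunits, all 8 lid subunits, all 4 activators, 5 of 6 ATPases and 4 of 7 beta subunits were lower. This comparison and that of Torin-1 with DMSO share the Torin-1 samples. With quantile normalization 25 members and 3009 of all genes were lower with Torin-1, while 2 members and 3232 of all genes were higher.

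PSME3 had 306 and 295 CPM with apilimod and 177 and 182 CPM with Torin-1, a log2 difference of -0.74 (adjusted p = 4.21e-08). PSMA3 had 102 and 104 CPM against 60.9 and 70.1 CPM (-0.65, adjusted p = 8.76e-06), and PSMB2 had 281 and 263 CPM against 169 and 179 CPM (-0.64, adjusted p = 4.41e-07). For each gene both Torin-1 samples were the lower ones. PSMD12 had 157 and 171 CPM against 101 and 114 CPM (-0.61, adjusted p = 8.85e-06), and PSMC4 had 52.7 and 49.6 CPM against 33.1 and 33.3 CPM (-0.61, adjusted p = 4.54e-05). PSMG2 was 37.7 and 45.4 CPM with apilimod and 57.2 and 72.6 CPM with Torin-1 (0.63, adjusted p = 0.000466), and PSMD4 was 207 and 208 CPM against 243 and 236 CPM (0.21, adjusted p = 0.00379).

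The smaller called differences between the drugs included PSMB4, PSMA2 and PSMC5. None of these calls held with quantile normalization or without the variance trend. PSMB4 had 241 and 236 CPM with apilimod and 201 and 215 CPM with Torin-1 (-0.20, adjusted p = 0.00622), a call lost without Torin-1 replicate 1 (adjusted p = 0.0515). PSMA2, an alpha subunit, had 157 and 168 CPM against 134 and 146 CPM (-0.21, adjusted p = 0.0119), and the call was lost without Torin-1 replicate 1 (0.0969) or apilimod replicate 2 (0.102). Exons of PSMA2 and of the gene AC010132.3 on the same strand share 781 bases, and AC010132.3 had 32.6 and 38.2 CPM with apilimod and 32.7 and 39.2 CPM with Torin-1. PSMC5 had 161 and 143 CPM with apilimod and 133 and 129 CPM with Torin-1 (-0.21, adjusted p = 0.0166), and lost the call without Torin-1 replicate 2 (0.069) or apilimod replicate 1 (0.18).

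The core chaperones PSMG1 and PSMG3 were lower with Torin-1 than with apilimod while PSMG2 was higher. PSMG1 had 53.2 and 58.3 CPM with apilimod and 33.4 and 41.3 CPM with Torin-1 (-0.57, adjusted p = 0.000559). PSMG3 had 35.4 and 34.2 CPM against 26.9 and 27.8 CPM (-0.34, adjusted p = 0.00844), and its call was lost without apilimod replicate 1 (adjusted p = 0.052). The base chaperone PSMD5 was 75.2 and 74.1 CPM with apilimod and 74.8 and 75.7 CPM with Torin-1, with overlap and an interval of -0.13 to 0.16. PSMG4 also overlapped, at 12.4 and 10.2 CPM against 15.3 and 9.59 CPM (interval -0.30 to 0.51).

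The knockdown and Torin-1 were set side by side gene by gene, since they have separate control samples. Of the 25 members that rose in the knockdown, 19 (76%) fell with Torin-1, and these make up 61.3% of the 31 that fell. Of all 43 members 72.1% fell with Torin-1 and 58.1% rose in the knockdown, so both shares lie near those of the members as a whole. Among all 13235 genes tested in both tables the same counts were 1373 genes, 47.4% of those that rose in the knockdown and 46.5% of those that fell with Torin-1. These stand farther from the shares of all genes tested in each table, 21.8% that fell with Torin-1 and 21.6% that rose in the knockdown. The median Torin-1 log2 fold change was -0.41 for the 25 members that rose in the knockdown and -0.27 for the other 18, of which 12 fell. Across the 43 members Pearson's r between the fold changes was -0.10 and Spearman's rho -0.29, and without PSMB3 they were -0.34 and -0.39 (42 genes), against -0.33 and -0.37 across all genes. Members share libraries and are not independent replicates, so these are descriptions.

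**Figure D4:**
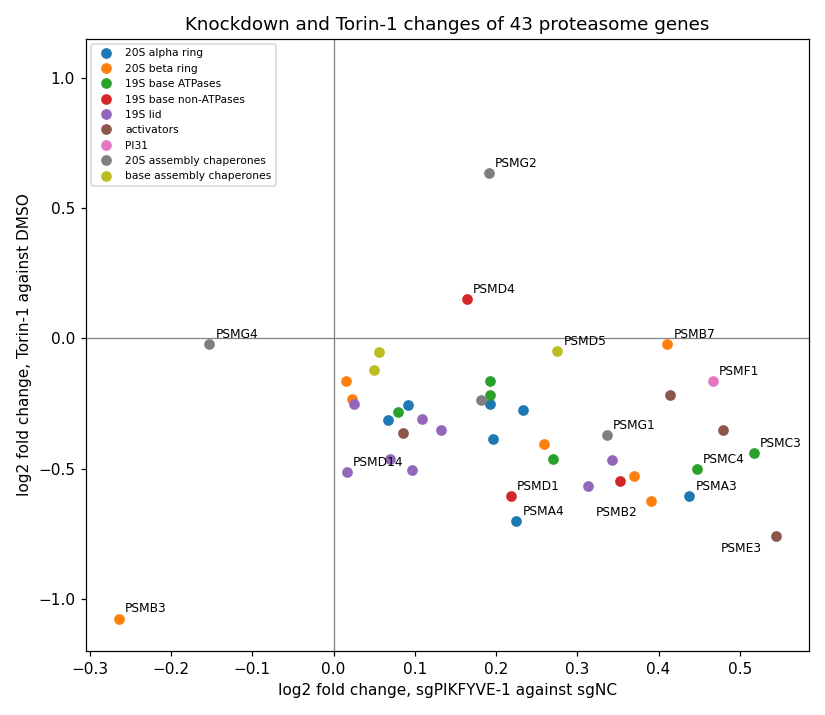
Each point is 1 of the 43 tested members, coloured by class, with the log2 fold change of sgPIKFYVE-1 against sgNC on the horizontal axis and of Torin-1 against DMSO on the vertical axis. Most points lie in the lower right, with PSME3 at 0.54 and -0.76, while PSMG2 and PSMD4 lie above 0 on both axes and PSMB3 and PSMG4 below 0 on both.

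Genes that work with the proteasome but carry other symbols were followed as a list of 26. In the knockdown 9 rose (34.6%, all genes 21.6%), 2 fell (7.69%, all genes 20.9%) and 15 did not pass the test, with a median of 0.10 on the log2 scale. With apilimod 2 rose (7.69%), a share near the 5.75% of all genes, and 24 did not pass. With Torin-1 4 rose (15.4%, all genes 16.6%), 16 fell (61.5%, all genes 21.8%) and 6 did not pass (median -0.25). With Torin-1 against apilimod 4 were higher (15.4%, all genes 20.5%), 15 lower (57.7%, all genes 26.2%) and 7 did not pass. Of the 6 further subunits and bound factors, 4 rose in the knockdown and 4 fell with Torin-1, among them the deubiquitinases UCHL5 and USP14 in both counts. The other 2 of these 6 rose with Torin-1, the proteasome adaptor ECPAS from 149 and 154 CPM to 176 and 192 CPM (0.28, adjusted p = 0.00256) and the cap-bound thioredoxin-like TXNL1 from 85.9 and 84.2 CPM to 99.4 and 104 CPM (0.25, adjusted p = 0.0084), and TXNL1 was also among the 4 that rose in the knockdown.

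NFE2L1, the transcription factor of proteasome genes, was 238 and 247 CPM with sgNC and 266 and 254 CPM with sgPIKFYVE-1 (log2 fold change 0.10, adjusted p = 0.115). With Torin-1 its transcript was 211 and 198 CPM against 235 and 229.9 CPM with DMSO (-0.19, adjusted p = 0.0407), and apilimod had 270.4 and 232 CPM (0.11, adjusted p = 0.4). NFE2L1 is controlled by processing of the protein, which RNA-seq does not measure. POMP, the chaperone that completes the core, was 51.2 and 57.7 CPM with sgNC and 58.4 and 60.7 CPM in the knockdown (0.13, adjusted p = 0.21). It was 65.3 and 62.6 CPM with DMSO and 40.9 and 37.2 CPM with Torin-1 (-0.70, SE 0.091, adjusted p = 4.73e-05), one of the larger decreases of the pathway.

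In the knockdown the largest called changes of the list were those of UBB, UCHL5 and NGLY1. The polyubiquitin gene UBB was 517 and 555 CPM with sgNC and 766 and 763 CPM with sgPIKFYVE-1 (0.51, adjusted p = 1.75e-08), and UCHL5 was 112 and 125 CPM against 148 and 166 CPM (0.40, adjusted p = 7.47e-05). NGLY1, the glycanase that processes NFE2L1, went the other way, from 28.3 and 30.1 CPM to 24.99 and 20.3 CPM (-0.36, adjusted p = 0.019). With Torin-1 the largest were POMP, then UBA1, the main ubiquitin-activating enzyme, at 317 and 319 CPM with DMSO and 213 and 202 CPM with Torin-1 (-0.61, adjusted p = 8.18e-07). VCP, the ATPase that extracts ubiquitin-tagged proteins, followed at 477 and 456 CPM against 319 and 320.3 CPM (-0.55, adjusted p = 9.14e-07). With apilimod USP14 rose, from 189.9 and 189.5 CPM with DMSO to 213 and 220.0 CPM (0.19, adjusted p = 0.0431). Against apilimod, the largest differences with Torin-1 were POMP (-0.80), USP14 (-0.63) and VCP (-0.59).

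Members with and without the promoter motif TGACNNNGC were similar in size of change. The median log2 fold change was 0.22 for the 14 with it and 0.19 for those without in the knockdown, and -0.37 and -0.35 with Torin-1. The stretches printed above were picked from genes that responded differently, so the differences among these genes are not a result about the motif. PSMD12 rose in the knockdown and fell with Torin-1. PSMD5 rose in the knockdown and did not pass with Torin-1, and PSMB3 fell in both. PSME4 did not pass in the knockdown (0.09) and fell by 0.36 with Torin-1.

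Further motifs were counted on either strand of the same windows, and none of them contains another. The ETS motif CCGGAAG was in 14 of 37 members (37.8%, all genes 12.2%), and the GC box GGGCGG in 26 (70.3%, all genes 48.3%). The NF-Y box CCAAT was in 18 (48.6%, all genes 39.7%), and the motif of nuclear respiratory factor 1 in 5 (13.5%, all genes 6.98%). The 14 members with CCGGAAG had medians of 0.09 (knockdown) and -0.29 (Torin-1) for the log2 fold change, against 0.26 and -0.41 for the members without it. Members with CCAAT had medians of 0.21 and -0.42, against 0.19 and -0.28. Here too the shares of all genes were not limited to genes that passed the filter. A match is a run of letters in a window and not a measured site.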

How the data were processed

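QGP-1 RNA-seq was deposited as 2 gene tables. After trimming with Trimmomatic, the authors estimated transcript abundances, added these up per gene, scaled them by TMM (edgeR) and tested genes with DESeq2. Values were deposited as a signal on the scale of CPM, each table scaled on its own, with sample sums between 972493 and 1024332. The labels' processing notes name bcl2fastq 2.20, FastQC and hg38; the quantifier and annotation are not given in the sources used here. Libraries were made by oligo(dT) selection according to the methods but by removal of ribosomal RNA according to the labels.

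The members and gene lists were chosen with earlier results of these data known. Genes averaging 1 CPM or more in a table entered limma 3.58.1 as log2(CPM + 1) (lmFit and eBayes with trend) in R 4.3.3, with two-sided tests, p-values adjusted by Benjamini-Hochberg over the whole table and called under 0.05. All adjusted p-values are limma's. The design had assumed plain CPM, and since the values are a scaled signal the same log-scale test was kept and no count model was fitted. The fits used 4 knockdown-table and 6 drug-table samples. A pseudocount of 1 understates changes of low genes. The procedure was tested on simulated data that had the same setting of spread for every gene and no outlying sample. It therefore does not show how a gene such as PSMB3, whose replicates lie far apart, is handled. No 2 replicates were closer than counting noise allows (median chi-square 1.86 to 2.52 times the expected value).

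Named in each comparison were 5 called members from each end of the log2 fold changes, the 2 with the smallest change, members called against their class, NFE2L1, POMP and the 3 largest called changes of the 26 linked genes, of which 1 is counted but not reported here by name. Other members named, such as PSMB5, PSMB6, PSMD8 and PSME4, were chosen after their values were seen. Positions are from GENCODE release 29 on GRCh38, in which all 44 members matched by ID without version and 14 with it; CPM per kilobase used the longest principal transcript. Promoters are RefSeq's on GRCh38.p14. Alternatives were a pseudocount of 0.1, no filter, no variance trend, quantile normalization, only the compared drug groups, a replicate block and each sample left out. Figures were drawn with matplotlib 3.10.9.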

Additional observations from a re-analysis of the deposited data

Results flagged for a closer look

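In 8 members both knockdown samples were above both sgNC samples while both apilimod samples were below both DMSO samples, although the guide and the drug act on the same kinase. That is 18.6% of the 43 members, while 875 of all 13235 genes tested in both tables did so (6.61%), and 5.23% of all genes and none of the members did the reverse. In the knockdown 41 of 43 member estimates were above 0, as were 49.4% of all genes. With apilimod 21 member estimates were above 0 and 22 below. The higher share among members is therefore not read as a result apart from their rise in the knockdown. The apilimod log2 fold change was -0.113 for PSMA4, -0.0216 for PSMA7, -0.121 for PSMC6, -0.111 for PSMD1, -0.0556 for PSMD4, -0.0618 for PSMD5, -0.0496 for PSME2 and -0.145 for PSME4. None of these apilimod changes passed limma's test. The difference between knockdown and apilimod was not tested, because the 2 tables were normalized separately and have their own controls.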

How the results depend on the processing

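Of the named members' log2 fold changes none reversed in sign past the threshold. In the knockdown 85 of 108 values kept their side of the threshold and 23 lost the call, with Torin-1 107 of 120 and 13, with Torin-1 against apilimod 126 of 140 and 14, and with apilimod all 20 stayed uncalled. The number of members that fell in the knockdown was 0 with no filter on low values and 0 without the variance trend, and between 0 and 1 with one library left out. Members that rose there numbered 13 without the variance trend. The median was 0.16 with quantile normalization and 0.19 to 0.23 with one library left out. With Torin-1 the median was -0.30 with quantile normalization and between -0.37 and -0.30 with one library left out, and 1 member rose without the variance trend and 1 to 2 with one library left out. For Torin-1 against apilimod the median was -0.26 with quantile normalization and between -0.37 and -0.29 with one library left out, and 1 member was higher without the variance trend. With apilimod 0 members passed in every setting. The cause of these shifts was not tested. The calls of PSMB3 were also lost with no filter on low values (adjusted p = 0.129 in the knockdown and 0.119 with Torin-1, by limma) and without the variance trend (0.159 and 0.117). Over all genes, 778 rose and 377 fell with apilimod, but 428 and 137 with no filter, 369 and 97 without the variance trend, 701 fell with a replicate block, and with one library left out 463 to 553 rose and 133 to 280 fell. In the knockdown 2935 of all genes rose, against 1776 without the variance trend, and with Torin-1 2248 rose, against 1493 without DMSO replicate 2. Among all genes, apilimod calls that rose made up 67.4% as scaled and 55.1% with quantile normalization. With a replicate block 25 members rose in the knockdown, 36 fell with Torin-1 and 36 were lower than with apilimod. Over all genes, 1055 rose and 701 fell with apilimod when a replicate block was used, against 778 and 377 without it. The differences between replicates 1 and 2 correlated across genes between groups with r of 0.037 in the knockdown table and 0.043 to 0.10 in the drug table. These values are low but do not settle whether replicate numbers pair the samples, and the main fits used no pairing. With 2 samples a group, one left out leaves a lone sample that is assumed to vary like the others.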

Other observations

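PSMB10, an immunoproteasome subunit that lies outside the members, was 10.9 and 8.97 CPM with sgNC and 19.7 and 21.0 CPM with sgPIKFYVE-1 (log2 fold change 0.97, adjusted p = 2.29e-05 by limma). With apilimod it was 15.4 and 15.5 CPM against 9.52 and 11.7 CPM with DMSO (0.51, adjusted p = 0.0491), and with Torin-1 8.83 and 10.4 CPM (-0.13, adjusted p = 0.533). The other immunoproteasome genes PSMB8 and PSMB9 were not examined, so these values describe PSMB10 alone.

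PSMC1P1, a pseudogene copy of PSMC1, was 6.41 and 4.74 CPM with DMSO, 1.43 and 1.65 CPM with Torin-1 and 2.10 and 1.17 CPM with apilimod. Its sum with PSMC1 was 110.3 and 109 CPM with DMSO, 89.9 and 99.2 CPM with Torin-1 and 115 and 117 CPM with apilimod. How reads were shared between the copies is not given in the sources used here.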
